A study of Mus musculus with 6 samples.

Results

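The 33 genes described here encode enzymes that cut proteins and sugars of the extracellular matrix and the cell surface, together with their inhibitors and 1 receptor. The list names them by role: 12 matrix metalloproteinases, 5 inhibitors of them, 5 genes of the plasminogen activator system, 7 ADAM proteases, 3 ADAMTS proteases and heparanase. Each gene was read from the probe set that names it alone and has the highest mean over all arrays. This gave 31 of the 33 genes among 18193 measured genes. Mmp15 and Serpine2 were not analysed here. Of the 31 genes, 23 had a mean log2 signal above the highest array median (8.11) in at least 1 line. The other 8 genes, Mmp2, Mmp12, Mmp19, Timp4, Reck, Plau, Serpinb2 and Adamts5, did not, and at such signals a gene cannot be told from background.

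Matrix metalloproteinases are zinc enzymes made as inactive precursors, which other proteases activate outside the cell. TIMPs bind their active site and block them. Urokinase and tissue plasminogen activator turn plasminogen into plasmin, which degrades fibrin and activates several metalloproteinase precursors, while ADAM proteases at the cell surface shed growth factors, receptors and adhesion proteins. In liver, these enzymes are known for remodelling of scar matrix by stellate cells and macrophages and for the spread of tumour cells through matrix.

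The cells were 3 related mouse lines of hepatocellular carcinoma, grown in the same serum-containing medium. I1 and M1 are migratory subpopulations that had been selected from the line BL185, called subclone lines in the sample titles, and BL185 is their parent. Their genotype, their strain and the selection procedure are not stated in the labels, and a subclone without selection was not measured. Each line was measured on 2 Affymetrix arrays, which give 1 log2 signal per probe set. Nothing in the labels ties the arrays of a line to separate cultures, and the spread behind every p-value may therefore be technical.

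M1 replicate 1 stood apart from the other arrays. The 2 I1 arrays correlated at r = 0.994 over all probe sets, the 2 M1 arrays at 0.910 and the 2 BL185 arrays at 0.997. M1 replicate 1 held the lowest of the 6 values for 13 of the 31 genes and the highest for 8. Over all genes it held 41.3% of the lowest and 35.4% of the highest values. M1 replicate 2 also held the highest value for 8 of the 31 genes, and 21.6% of the highest values over all genes. The control probe set for 18S ribosomal RNA read 11.27 and 11.51 on the I1 arrays, 12.50 and 10.68 on the M1 arrays and 10.11 and 10.14 on the BL185 arrays. The 3′ minus 5′ signal of Actb was 1.43 to 1.47 in I1, 1.24 to 1.43 in M1 and 0.876 to 1.08 in BL185. These measures moved with the selected lines, and their part in the differences below was not tested. Differences are therefore given from the fit to all 6 arrays and from a 5-array fit without M1 replicate 1. In the 5-array fit M1 is a single array that is assumed to vary like the other lines, and the spread comes from I1 and BL185.

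Among markers of the labelled cell type, the keratins Krt8 and Krt18 read 14.8 to 15.2 and the transcription factor Hnf4a 11.9 to 13.3 over the 6 arrays. Albumin (Alb) read 7.53 to 8.43, near the array medians, while transthyretin (Ttr) read 8.72 to 9.92, Apoa1 7.42 to 9.27 and Afp 7.14 to 9.89. The log2 of the summed signal of the 9 measured hepatocyte markers was 16.20 to 16.34 in I1, 16.04 to 16.21 in M1 and 16.09 to 16.12 in BL185. Linear signals were summed, so Krt8 and Krt18 make up most of this value, and Alb, Ttr, Apoa1 and Afp add little to it. For the 10 macrophage and leukocyte markers the log2 sum was 11.44 to 11.60 in I1, 11.22 to 12.04 in M1 and 12.06 to 12.14 in BL185. Ptprc, the pan-leukocyte marker, read 6.25 to 7.17, and was 1 of 2 of these 10 markers below every array median on all arrays. Csf1r read 9.05 to 10.31 and Lyz2 8.51 to 9.54, above every array median. Cd68 read 7.78 and 7.41 in I1, 7.51 and 7.37 in M1 and 10.74 and 10.56 in BL185. For the 10 stellate cell and fibroblast markers the sum was 11.70 to 11.78 in I1, 11.55 to 12.01 in M1 and 11.34 to 11.44 in BL185. For the 10 endothelial markers it was 11.58 to 11.63 in I1, 11.62 to 11.88 in M1 and 11.44 to 11.47 in BL185. In the fit to all 6 arrays, Cd68 fell in I1, Cd68 and Cd53 fell in M1, and 0 markers of the other 3 lists were called. In the 5-array fit 5 of 9 hepatocyte, 5 of 10 macrophage and leukocyte, 6 of 10 stellate cell and fibroblast and 4 of 10 endothelial markers were called in I1. All of them were higher except Cd68 (−3.05) and Cd53 (−1.46), by at most 0.91 log2 units. The same fit called 46.6% of all genes in I1, so these counts are near that share and are no result about the markers. In M1 replicate 2 the lowest changes were those of Cd68 (−3.28) and Cd53 (−1.77), and the highest was that of Esam (0.48). The part of these marker differences in the protease values was not tested.

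Timp1, which blocks most secreted metalloproteinases, was the gene of the 31 that rose in both selected lines. The collagenase Mmp13 and the aggrecanase Adamts1 had far lower signals in both lines on every array, and the sheddase Adam8 was higher on every array. The stromelysins Mmp3 and Mmp10 were lower in M1 and close to BL185 in I1. By limma on all 6 arrays with Benjamini-Hochberg adjustment over all genes, 1 of 31 genes rose and 0 fell in I1, against 0.192% and 0.319% of all genes. In M1 1 of 31 rose and 0 fell, against 0.275% and 0.605% of all genes. At an unadjusted p under 0.05 by limma there were 6 of the 31 genes in I1 and 8 in M1. The share of all genes at that threshold is not given here, so these counts are no result about the 31 genes. The median log2 change of the 31 genes was 0.12 in I1 and 0.07 in M1, beside 0.06 and 0.07 over all genes, and without M1 replicate 1 it was 0.10 in M1, beside 0.03. Both comparisons use the same BL185 arrays.

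In the 5-array fit, 2 genes passed the same threshold with a rise of at least 2-fold in I1 and 2 with a fall, against 2.45% and 5.82% of all genes. These were Timp1 and Adam8, and Mmp13 and Adamts1. In M1 4 genes passed with a rise of at least 2-fold (Timp1, Adam8, Mmp24 and Plat) and 4 with a fall (Mmp13, Mmp3, Mmp10 and Adamts1), against 3.79% and 3.26% of all genes. Without a minimum size, 19 of 31 genes passed in I1 and 9 in M1, against 46.6% and 24.0% of all genes. On the arrays themselves, both I1 values lay above both BL185 values for 14 genes and below them for 9, against 42.6% and 33.5% of all genes. Both M1 values lay above for 8 genes and below for 6, against 26.2% and 25.7% of all genes. The shares of the 31 genes that did not overlap were near or below those of all genes and are no result about these genes. In I1 the share that passed without a minimum size was above that of all genes, and this difference was not tested.

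**Figure D1:**
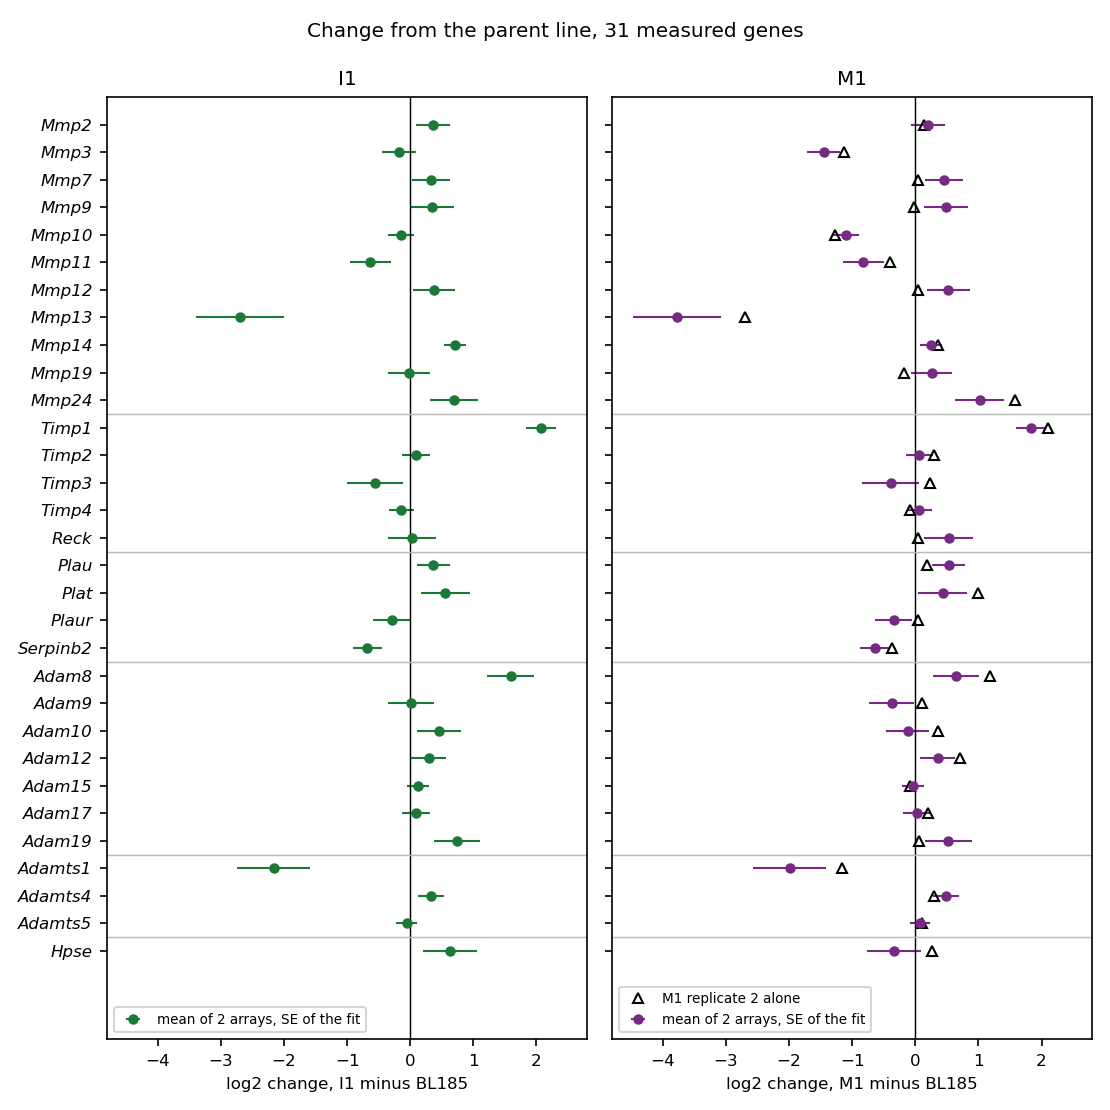
Log2 change from BL185 of the 31 measured genes in I1 (left, green) and M1 (right, purple), as the mean of 2 arrays with the SE of the fit to all 6 arrays; open triangles give M1 replicate 2 alone, and grey lines part the groups of genes by role. Timp1 stands at 2.07 in I1 and 1.83 in M1, and Mmp13 at −2.70 and −3.78, while most other genes lie within 1 log2 unit of 0.

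Among the inhibitors, Timp1 had log2 signals of 12.19 and 12.22 in I1, 11.69 and 12.23 in M1 and 10.17 and 10.09 in BL185. All 4 arrays of the selected lines lay above both arrays of the parent. The log2 change was 2.07 ± 0.23 in I1 (SE; 4.20-fold, adjusted p = 0.0461 by limma) and 1.83 ± 0.23 in M1 (3.56-fold, adjusted p = 0.0469). As the RNA is of whole cultures, a change in the share of cells of a type and a change in RNA per cell cannot be told apart. Both adjusted p-values lay just under the threshold of 0.05. The change kept its sign in all 16 alternative fits, between 2.02 and 2.28 in I1 and between 1.56 and 2.27 in M1. It passed the threshold in 9 of them in I1 and in 8 in M1, with adjusted p from 8.41e-09 to 0.763 and from 5.88e-08 to 0.627. The fits that ended the call were those with a variance trend, a robust prior or the replicate number as a block, those without a BL185 array and, for I1, those without an I1 array. For M1 the call was also lost without an I1 array or with only the arrays of M1 and BL185.

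Timp2, which inhibits metalloproteinases and also docks the precursor of Mmp2 on Mmp14, read 14.01 and 14.18 in I1, 13.83 and 14.30 in M1 and 13.99 and 14.02 in BL185. The lines overlapped, and the change was 0.10 in I1 (95% interval −0.46 to 0.65) and 0.07 in M1 (−0.49 to 0.63). Timp3, a matrix-bound inhibitor that also blocks ADAM17 and ADAMTS enzymes, read 9.63 and 10.12 in I1, 9.41 and 10.66 in M1 and 10.35 and 10.51 in BL185. Both I1 arrays were lower than the parent, whereas the M1 arrays lay on either side of it. Its change in I1, −0.55, passed in the 5-array fit (adjusted p = 0.00733) and not in the fit to all arrays (0.693). Timp4 and Reck, a membrane-anchored inhibitor, read 7.15 to 8.43 over all arrays, about the array medians or below. The median of the 5 inhibitors was 0.03 in I1 and 0.07 in M1, and 0.24 in M1 without M1 replicate 1.

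**Figure D2:**
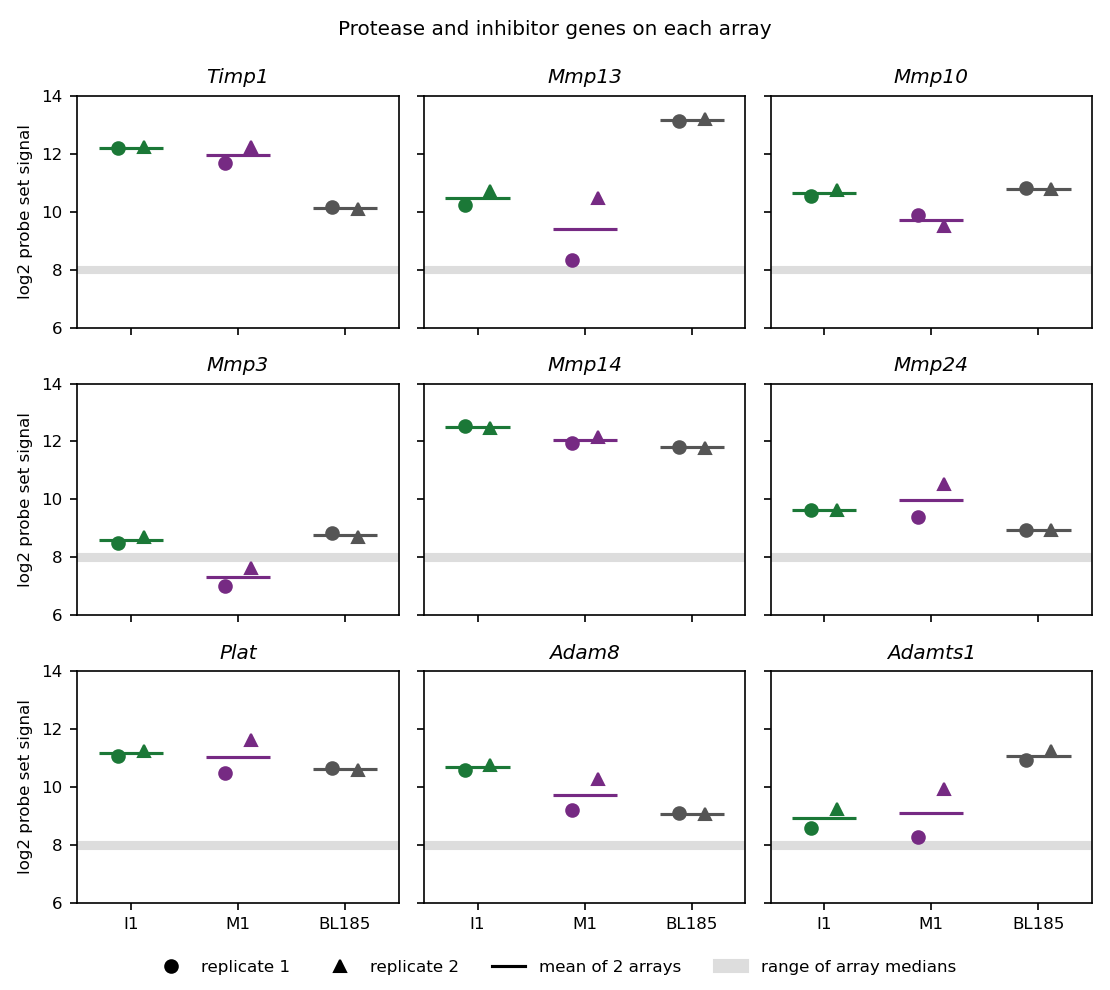
Log2 probe set signal of 9 genes on each of the 2 arrays of I1, M1 and BL185 (circles and triangles, replicates 1 and 2), with the mean of each line as a bar and the range of the 6 array medians in grey. Timp1 is higher and Mmp13 and Adamts1 are lower on all 4 arrays of the selected lines, and the M1 arrays of Mmp13 read 8.32 and 10.47.

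Among the secreted metalloproteinases, Mmp13 differed the most. Mmp13 is the main interstitial collagenase of the mouse and cuts fibrillar collagen. Its log2 signal was 10.24 and 10.70 in I1, 8.32 and 10.47 in M1 and 13.14 and 13.21 in BL185. All 4 arrays of the selected lines were lower than the parent, and M1 replicate 1 was close to its array median. The log2 change was −2.70 ± 0.70 in I1 (SE) and −3.78 ± 0.70 in M1. Neither passed in the fit to all arrays (limma, adjusted p = 0.222 and 0.0961). In the 5-array fit the changes were −2.70 ± 0.14 in I1 and −2.70 ± 0.17 in M1 replicate 2 (adjusted p = 6.92e-09 and 5.36e-08). The sign was kept in all 16 alternative fits of each comparison.

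Mmp10 and Mmp3, the stromelysins, cut proteoglycans and basement membrane proteins and activate other metalloproteinase precursors. Mmp10 read 10.55 and 10.76 in I1, 9.88 and 9.52 in M1 and 10.80 and 10.79 in BL185. Both M1 arrays lay below the other 4 arrays. The log2 change was −0.14 ± 0.20 in I1 (95% interval −0.66 to 0.37) and −1.10 ± 0.20 in M1 (adjusted p = 0.0973), and −1.28 ± 0.14 for M1 replicate 2 in the 5-array fit (adjusted p = 1.30e-05). Mmp3 read 8.48 and 8.71 in I1, 7.01 and 7.64 in M1 and 8.83 and 8.71 in BL185, so both M1 arrays lay below the array medians and the size of its difference is not exact. Its change was −0.18 ± 0.26 in I1 (95% interval −0.84 to 0.49) and −1.45 ± 0.26 in M1 (adjusted p = 0.0926), or −1.13 ± 0.15 in the 5-array fit (4.98e-05).

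In the RefSeq table of assembly GRCm38.p6, the genes on mouse chromosome 9 that follow each other are Mmp13, Mmp12, Mmp1b, Mmp3, Mmp1a, Mmp10, Mmp8, Mmp27, Mmp20 and Mmp7. Mmp13, Mmp3 and Mmp10 therefore sit in 1 cluster. Promoter sequences from RefSeq (GRCm38.p6), 29 in all, were at hand for 24 of the 33 genes, and 2 motifs were searched in the 250 bases before each start. A gene was counted if any of its starts had a match, so the counts of genes and the shares of promoters below are in unlike units. One is the AP-1 element TGAGTCA on both strands, bound by Fos and Jun proteins and known from collagenase and stromelysin promoters, and the other is the TATA box TATAAA on the gene's strand. The letters of the motifs cannot overlap. The AP-1 element was found for 7 of the 24 genes (Mmp3, Mmp7, Mmp10, Mmp12, Mmp13, Plaur and Adam19), and in 4.46% of all 32851 promoters. The TATA box was found for 6 genes (Mmp3, Mmp7, Mmp10, Mmp13, Serpinb2 and Adamts1), and in 7.59% of all promoters.

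The promoters of the cluster genes Mmp13, Mmp3, Mmp10 and Mmp7 are shown because they hold both motifs with the TATA box nearer the start, although Mmp7 did not share the lower signals. Those of Timp1, Adamts1 and Adam8 are shown beside them as the further genes that differed by at least 2-fold in both selected lines in the 5-array fit. Capitals mark AP-1 elements and TATA boxes, and the last base printed is the base before the start. They lie at chr9:7272264-7272513 (Mmp13, plus strand), chr9:7445572-7445821 (Mmp3, plus), chr9:7502092-7502341 (Mmp10, plus), chr9:7691840-7692089 (Mmp7, plus), chrX:20869916-20870165 (Timp1, plus), chr16:85803114-85803363 (Adamts1, minus) and chr7:139992563-139992812 (Adam8, minus).
Mmp13: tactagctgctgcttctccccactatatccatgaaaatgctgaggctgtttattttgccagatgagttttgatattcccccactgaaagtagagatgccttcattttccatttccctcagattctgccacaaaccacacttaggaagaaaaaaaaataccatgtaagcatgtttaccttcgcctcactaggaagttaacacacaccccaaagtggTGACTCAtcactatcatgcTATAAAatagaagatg
Mmp3: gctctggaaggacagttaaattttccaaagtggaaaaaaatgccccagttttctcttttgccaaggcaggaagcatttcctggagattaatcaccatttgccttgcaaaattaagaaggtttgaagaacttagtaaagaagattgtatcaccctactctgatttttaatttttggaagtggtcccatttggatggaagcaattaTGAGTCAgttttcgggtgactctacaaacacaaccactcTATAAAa
Mmp10: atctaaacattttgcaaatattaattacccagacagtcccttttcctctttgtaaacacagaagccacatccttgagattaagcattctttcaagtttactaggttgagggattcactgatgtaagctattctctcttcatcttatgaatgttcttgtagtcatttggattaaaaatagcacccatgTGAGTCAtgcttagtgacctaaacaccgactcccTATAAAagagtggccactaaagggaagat
Mmp7: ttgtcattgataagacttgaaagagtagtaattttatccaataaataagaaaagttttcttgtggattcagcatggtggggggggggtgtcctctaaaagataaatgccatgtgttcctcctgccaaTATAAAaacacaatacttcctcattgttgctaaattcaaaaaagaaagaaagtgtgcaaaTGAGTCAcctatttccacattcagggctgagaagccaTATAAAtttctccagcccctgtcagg
Timp1: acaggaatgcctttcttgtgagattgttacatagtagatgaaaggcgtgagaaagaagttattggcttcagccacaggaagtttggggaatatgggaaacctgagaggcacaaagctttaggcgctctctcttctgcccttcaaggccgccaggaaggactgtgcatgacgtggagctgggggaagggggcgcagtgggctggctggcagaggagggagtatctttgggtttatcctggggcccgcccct
Adamts1: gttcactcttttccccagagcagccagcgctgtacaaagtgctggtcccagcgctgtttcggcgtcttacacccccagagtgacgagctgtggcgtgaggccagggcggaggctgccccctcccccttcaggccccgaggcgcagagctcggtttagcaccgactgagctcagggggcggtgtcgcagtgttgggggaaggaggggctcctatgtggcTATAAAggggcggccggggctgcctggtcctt
Adam8: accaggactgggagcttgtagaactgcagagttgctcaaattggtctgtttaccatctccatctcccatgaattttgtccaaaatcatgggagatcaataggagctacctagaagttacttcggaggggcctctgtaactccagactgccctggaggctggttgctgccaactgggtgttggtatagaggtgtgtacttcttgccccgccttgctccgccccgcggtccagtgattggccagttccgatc

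The AP-1 element spans bases −35 to −29 of Mmp13 (on the reverse strand, printed TGACTCA), −46 to −40 of Mmp3 and −63 to −57 of both Mmp10 and Mmp7. A TATA box follows it at −16 to −11 in Mmp13, −7 to −2 in Mmp3, −29 to −24 in Mmp10 and −26 to −21 in Mmp7, which has a second one at −123 to −118. Adamts1 has a TATA box at −32 to −27 and no match to the AP-1 letters in this window, and Timp1 and Adam8 have neither. A match is a description of the letters, and binding was not measured.

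**Figure D3:**
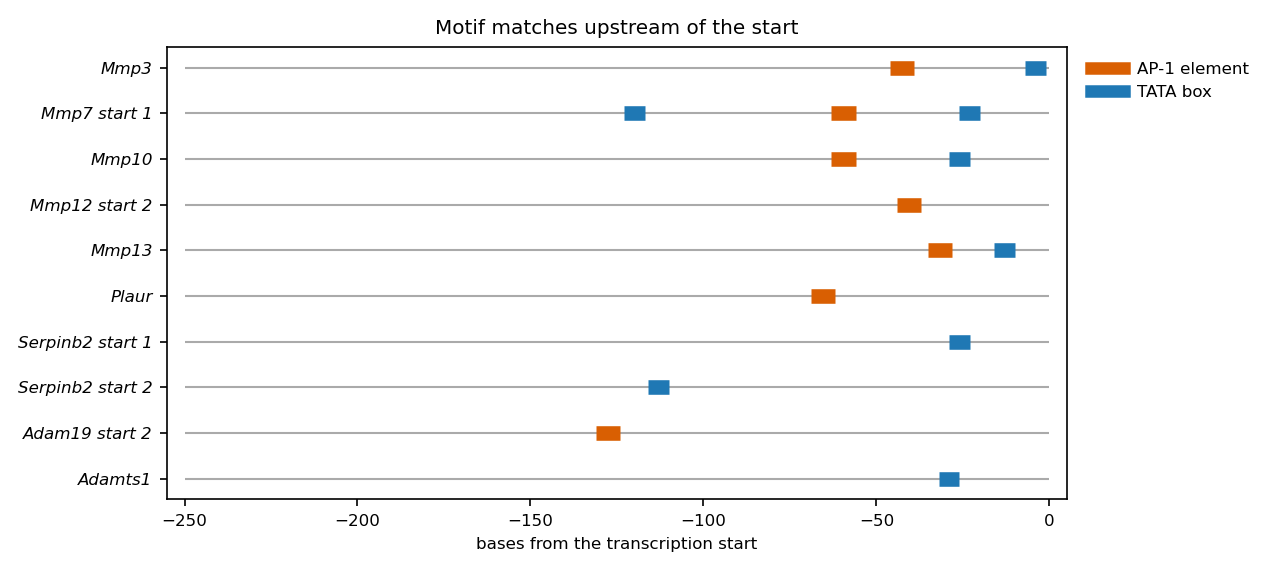
Positions of AP-1 elements (orange) and TATA boxes (blue) in the 250 bases before the transcription start, in bases from the start, for each promoter of the listed genes that holds a match; genes with several starts have them numbered. In Mmp3, Mmp7, Mmp10 and Mmp13 an AP-1 element lies 29 to 63 bases before the start, with a TATA box between it and the start.

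Among the other genes with an AP-1 element, Mmp7, or matrilysin, an epithelial protease and known target of beta-catenin, read 8.69 and 8.52 in I1, 9.14 and 8.32 in M1 and 8.26 and 8.30 in BL185. Its values in the selected lines were slightly above the parent, near the array medians. Mmp12, the macrophage elastase, read 6.42 to 7.48 over all arrays. Plaur and Adam19 are described with their groups.

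Mmp14 is the membrane-bound metalloproteinase that activates the precursor of Mmp2 and clears collagen in front of moving cells. It read 12.53 and 12.48 in I1, 11.94 and 12.16 in M1 and 11.82 and 11.77 in BL185. The 3 lines did not overlap. The change was 0.70 ± 0.17 in I1 (SE; 95% interval 0.26 to 1.14; adjusted p = 0.204 in the fit to all arrays and 1.59e-04 in the 5-array fit) and 0.25 ± 0.17 in M1 (−0.19 to 0.69; 0.457 and 0.0743). Its other 2 probe sets did not show the same, with differences of −0.08 and 0.18 in I1 and −0.71 and −0.06 in M1. In M1 its sign also turned under 1 of 16 alternatives, the mean of the probe sets (−0.17).

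Mmp24, a second membrane-bound enzyme known from the nervous system, read 9.62 and 9.64 in I1, 9.40 and 10.53 in M1 and 8.95 and 8.93 in BL185. All 4 arrays of the selected lines were higher. The change was 0.69 ± 0.38 in I1 (SE) and 1.02 ± 0.38 in M1 (adjusted p = 0.598 and 0.313), and in the 5-array fit 0.69 ± 0.11 and 1.58 ± 0.14 (1.76e-04 and 8.58e-07). Its 2 dimmer probe sets differed less, by 0.19 and 0.20 in I1 and 0.13 and 0.36 in M1. On M1 replicate 2 alone they gave 0.06 and −0.07, so the rise there rests on the probe set used. Mmp11, an enzyme of tumour stroma in human cancers, read 8.95 and 8.76 in I1, 8.25 and 9.08 in M1 and 9.61 and 9.36 in BL185. Its change of −0.63 in I1 passed in the 5-array fit (adjusted p = 0.00106) and that of −0.40 in M1 replicate 2 did not (0.0803). The gelatinases Mmp2 and Mmp9 and the enzyme Mmp19 read at most 8.70 on any array, about the array medians or below, and this highest value was Mmp9 on M1 replicate 1. Over the 11 measured metalloproteinases the median log2 change was 0.33 in I1 and 0.25 in M1. The M1 median rests on M1 replicate 1 and was −0.012 without it.

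Of the plasminogen activator system, 0 of 4 measured genes passed in either line in the fit to all arrays. Plat, tissue plasminogen activator, read 11.09 and 11.25 in I1, 10.49 and 11.62 in M1 and 10.65 and 10.59 in BL185. Both I1 arrays were above the parent, and the M1 arrays lay on either side of it. The 5-array fit called it in I1 (0.55 ± 0.12, SE; adjusted p = 0.00141) and in M1 replicate 2 (1.00 ± 0.14; 1.04e-04), whereas M1 replicate 1 alone gave −0.13. A dim other probe set of Plat had a difference of 0.20 in I1 and 0.03 in M1 replicate 2, so it did not show this rise. Plaur, the urokinase receptor, read 11.05 and 11.22 in I1, 10.71 and 11.48 in M1 and 11.42 and 11.44 in BL185. Its change in I1 was −0.30 ± 0.29 (adjusted p = 0.732; 0.0497 in the 5-array fit). Plau, urokinase itself, read 7.38 to 8.25 and Serpinb2, an inhibitor of urokinase, 6.27 to 7.24 over all arrays. Serpinb2 was lower than BL185 on all 4 arrays of the selected lines at these dim signals, with changes of −0.68 in I1 and −0.64 in M1, and Plau was higher, with 0.36 and 0.53. Both passed in I1 in the 5-array fit (2.48e-04 and 0.0168).

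Among the 7 ADAM genes, Adam8 differed the most. Adam8 is a cell-surface protease of leukocytes that tumour cells can also make. It read 10.60 and 10.75 in I1, 9.19 and 10.27 in M1 and 9.10 and 9.06 in BL185. The I1 arrays were the highest, and M1 replicate 1 was little above the parent. The log2 change was 1.59 ± 0.37 in I1 (SE; 3.01-fold) and 0.65 ± 0.37 in M1 (1.56-fold). In the fit to all arrays the adjusted p was 0.189 and 0.429, and in the 5-array fit 1.16e-07 in I1 and 1.95e-05 in M1 replicate 2 (1.18 ± 0.14).

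Adam9, a widely made sheddase, read 12.97 and 13.37 in I1, 12.31 and 13.27 in M1 and 13.12 and 13.20 in BL185, with the lines overlapping. Adam10, which sheds Notch and cadherins, read 12.77 and 12.97 in I1, 11.81 and 12.78 in M1 and 12.48 and 12.36 in BL185. Its change in I1 of 0.46 ± 0.35 passed in the 5-array fit (adjusted p = 0.00660). Adam17, the sheddase of TNF and of EGF receptor ligands, had a difference of 0.08 in I1 (95% interval −0.48 to 0.65) and 0.02 in M1 (−0.54 to 0.59). Adam15, an integrin-binding ADAM, had a difference of 0.12 in I1 (−0.32 to 0.56) and −0.03 in M1 (−0.47 to 0.41). Adam19, an ADAM known from heart development, was at 8.55 and 8.01 in I1, 8.52 and 7.60 in M1 and 7.57 and 7.49 in BL185, and passed in I1 in the 5-array fit (0.75 ± 0.15; adjusted p = 0.00114). Adam12, a protease of mesenchymal cells, read 7.71 to 8.47 over all arrays, with a difference of 0.71 in M1 replicate 2. Its other probe set, with a mean signal of 7.79, gave a difference of 0.0018 on that array. On the probe sets used, all 7 ADAM genes had a positive difference in I1 (median 0.29) and 4 of 7 in M1 (0.02). Without M1 replicate 1 the M1 median was 0.21, and Adam9 (0.11) and Adam10 (0.36) were also positive there. Over all genes 10305 of 18193 were positive in I1 and 10099 in M1. Adam9 was at 0.01 in I1, and Adam10, Adam15, Adam17 and Adam19 each had another probe set that was negative there. No trend of the group is therefore read from these counts.

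Probe sets of the same gene did not always differ alike between the lines. Of the 31 genes 17 had more than 1 probe set, and of their 32 other probe sets 16 had a difference in I1 of the other sign, or over 1 log2 unit from that of the one used, as did 15 in M1. Over all 6 of its probe sets, Timp2 had differences of −1.97 to 0.10 in I1 and −2.09 to 0.07 in M1. The lowest of these read 8.85 and 8.67 in I1, 8.01 and 9.28 in M1 and 10.44 and 11.03 in BL185, so all 4 arrays of the selected lines were lower there. Another probe set of Adam10 was likewise lower in the selected lines, with 8.74 and 8.86 in I1, 7.18 and 9.86 in M1 and 10.21 and 10.24 in BL185. Its difference was −1.43 in I1 and −1.71 in M1. A further probe set of Adam10 was also lower, with −0.33 in I1 and −0.49 in M1, and its dimmest had 0.13 and 0.20. For Adam17 the other 2 probe sets had differences of −0.98 and −0.58 in I1 and −0.75 and −0.68 in M1. Adam15 had −0.50 and −0.29 in I1 on 2 others, and the dim other probe set of Adam19 had −0.07 in I1 and −0.16 in M1. Mmp14 was described above, and so were Mmp24, Plat and Adam12, whose other probe sets barely differed in M1 replicate 2. The other disagreements were in Timp3, Timp4, Mmp19 and Adamts5, each on probe sets with a mean signal under 8. Which transcripts or transcript parts these probe sets read is not given in the files, and the 3′ minus 5′ signal of Actb was also higher in the selected lines. Its part in these values was not tested. No single direction is therefore given for Mmp14, Timp2, Adam10, Adam15, Adam17 or Adam19. Timp1, Mmp13, Mmp10, Mmp3, Adam8 and Adamts1 have 1 probe set each, so a disagreement of this kind could not show for them.

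**Figure D4:**
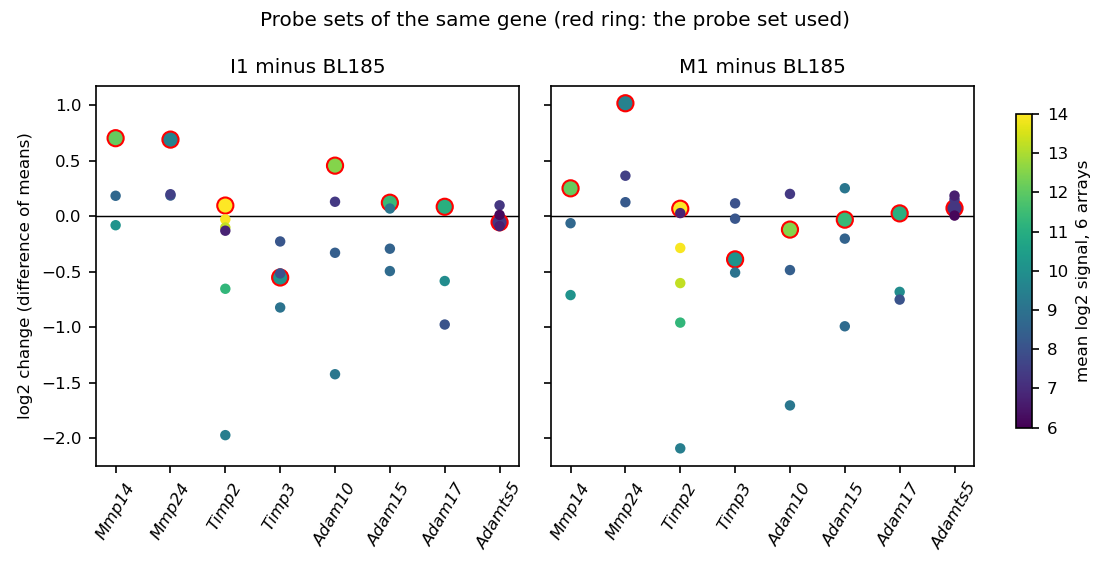
Log2 change from BL185 (difference of line means) of every probe set of the 8 genes with 3 or more probe sets, in I1 (left) and M1 (right); colour gives the mean log2 signal over 6 arrays and red rings mark the probe set used. Timp2 and Adam10 spread the most, down to −1.97 and −1.43 in I1, with the probe set used at 0.10 and 0.46.

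Adamts1, a secreted protease that cuts the proteoglycans versican and aggrecan, read 8.59 and 9.25 in I1, 8.27 and 9.92 in M1 and 10.92 and 11.24 in BL185. All 4 arrays of the selected lines were lower than the parent, and M1 replicate 1 was again the lowest. The log2 change was −2.16 ± 0.58 in I1 (SE; 4.47-fold lower) and −1.98 ± 0.58 in M1 (3.96-fold lower), with an adjusted p of 0.235 and 0.224 in the fit to all arrays. The 5-array fit gave −2.16 ± 0.18 in I1 and −1.16 ± 0.22 in M1 replicate 2 (4.35e-07 and 0.00116). The other aggrecanases were near or below the array medians: Adamts4 read 7.73 to 8.47 over all arrays, with all 4 arrays of the selected lines slightly above BL185, and Adamts5 read 7.18 to 7.36 over all arrays. Heparanase, Hpse, which cuts heparan sulfate chains, read 10.75 and 11.25 in I1, 9.44 and 10.62 in M1 and 10.33 and 10.40 in BL185. Both I1 arrays were above the parent and the M1 arrays lay on either side, and the I1 change of 0.63 ± 0.43 passed in the 5-array fit (adjusted p = 0.00283).

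I1 and M1 were also set against each other. In the fit to all arrays 0 of the 31 genes passed, as did 0% of all genes (limma; 4 of the 31 and 409 of all genes at an unadjusted p under 0.05). In the 5-array fit 1 of the 31 genes was at least 2-fold higher in I1 than in M1 replicate 2 and 0 were lower, against 0.786% and 1.24% of all genes. This was Mmp10, with a difference of 1.13 ± 0.14 (SE; adjusted p = 1.91e-04) and of 0.95 ± 0.20 with both M1 arrays (0.935). Mmp3 followed with 0.96 ± 0.15 (7.72e-04), or 1.27 ± 0.26 with both M1 arrays (0.890). Without a minimum size 7 of the 31 passed, against 20.6% of all genes. Both I1 values lay above both M1 values for 6 genes and below them for 1, against 8.13% and 7.96% of all genes. Those above were Mmp3, Mmp10, Mmp14, Adam8, Adam15 and Hpse, and the gene below was Adamts5. For Timp1 the difference was 0.24 (95% interval −0.34 to 0.82), and for Mmp13 1.08 (−0.69 to 2.84) with both M1 arrays and 2.82e-04 in the 5-array fit (adjusted p = 0.999).

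A further 74 genes of the same systems were listed in 6 groups, and 63 were measured. In the fit to all arrays 0 rose and 0 fell in I1, against 0.192% and 0.319% of all genes. In M1 0 rose and 1 fell, against 0.275% and 0.605% of all genes. The gene that fell was Hgfac, the activator of hepatocyte growth factor. Hgfac read 9.25 and 9.32 in I1, 8.36 and 8.51 in M1 and 10.27 and 10.15 in BL185. The 3 lines did not overlap, and the change was −0.93 ± 0.17 in I1 (SE; adjusted p = 0.122) and −1.77 ± 0.17 in M1 (0.0268, limma). The median change in I1 and M1 was 0.24 and 0.53 for 7 other metalloproteinases and 0.21 and 0.33 for 9 other plasmin system genes. It was 0.13 and 0.11 for 12 pericellular serine proteases and inhibitors and −0.03 and −0.24 for 10 activators and cofactors. It was −0.01 and −0.09 for 10 regulators of ADAM10 and ADAM17 and 0.05 and 0.08 for 15 other ADAM and ADAMTS genes. Without M1 replicate 1 the M1 medians of these 6 groups were, in the same order, −0.0054, 0.051, −0.040, −0.051, −0.046 and 0.057, so those of the first 4 rest on that array. In the 5-array fit 2 of the 63 were at least 2-fold higher and 1 lower in I1, against 2.45% and 5.82% of all genes. In M1 1 was higher and 2 were lower, against 3.79% and 3.26%, so these counts are near or below those shares and are no result about the 63 genes. These genes, named after their values were seen, were the membrane-anchored metalloproteinase Mmp17 (1.21 ± 0.11, SE), the secreted serine proteases Htra3 (1.26 ± 0.12) and Htra1 (−1.57 ± 0.13) in I1. In M1 replicate 2 they were Tspan15, a tetraspanin partner of ADAM10 (1.19 ± 0.14), Htra1 (−1.59 ± 0.16) and Hgfac (−1.70 ± 0.14).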

How the data were processed

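Expression was measured on 6 arrays, 2 for each of 3 mouse lines. The values deposited are log2 signals, 1 for each probe set on each array, made with RMA and the affy package per the submitters' processing notes. The notes name no versions or settings. The log2 scale was inferred from the values, which run from 5.80 to 15.4.

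The platform annotation gives a single gene for 34945 of 45101 probe sets; 34741 of them matched by Entrez identifier to RefSeq (GRCm38.p6), and 0 symbols changed. Control probe sets were left out. The probe set with the highest mean stood for each gene, giving 18193 genes, and 0 columns of sample values were left unused. With limma 3.58.1 (R 4.3.3), line means were estimated from the 6 arrays together, leaving 3 residual degrees of freedom, and eBayes tested 3 contrasts with Benjamini-Hochberg adjustment within each, at 0.05. The fit was tested on simulated data, and nothing about lines of unequal spread is concluded from that test. The fit pools the spread of all lines for each gene, although the M1 arrays differed far more (replicate SD 0.651) than the BL185 arrays (0.102). The number of arrays limits the precision.

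The genes, lists and rules were chosen with earlier results of these data known. All measured genes of the list are named. Array values are given for genes called in either fit with a change of at least 1 log2 unit without M1 replicate 1, for the gene with the highest mean signal in each group, and for some further genes. Further genes of these systems are named if called with all arrays, or, without M1 replicate 1, if called and changed by at least 2 log2 units; exceptions are marked. In addition, 4 lists of cell type markers were checked. Alternatives were a minimum mean signal of 8, averaging the probe sets of each gene, quantile and cyclic loess normalization, 50 added to linear values, eBayes with trend or robust, array weights, a replicate block, only the lines compared, a threshold of 0.01, and each array left out. Promoters were searched in Python 3.11.15 with pandas 2.3.3, and figures drawn with matplotlib 3.10.9.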

Additional observations from a re-analysis of the deposited data

Results flagged for a closer look

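Adamts5 is listed here because both I1 arrays lay below the BL185 mean of 7.25 and both M1 arrays above it. It read 7.18 and 7.22 in I1 and 7.30 and 7.36 in M1, and the difference I1 minus M1 was −0.13 ± 0.16 (SE; adjusted p = 1.00 by limma). All these values lay below the array medians.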

How the results depend on the processing

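Of the 31 genes, the number that passed was 1 in I1, 1 in M1 and 0 between I1 and M1 with all arrays. In I1 it was 3 after quantile normalization, 5 after cyclic loess, 20 with array weights, 19 with only the arrays of the lines compared and 0 with a variance trend, a robust prior or a threshold of 0.01. In M1 it was 4, 6, 2 and 0 in the first 4 of these settings and 0 in the last 3. With 1 array left out it ranged from 0 to 19 in I1, from 0 to 21 in M1 and from 0 to 21 between I1 and M1. The high counts came without an M1 array (19 without either in I1; 9 without replicate 1 and 21 without replicate 2 in M1; 7 and 21 between the lines) and the zeros without an I1 or BL185 array. With the replicate block 0 passed in I1 and 0 in M1. The replicate deviations correlated at 0.369 between I1 and M1, 0.161 between I1 and BL185 and −0.131 between M1 and BL185, so the numbers were not taken to pair the arrays.

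Over all genes, 93 passed in I1, 160 in M1 and 0 between I1 and M1. Quantile normalization gave 981, 1176 and 6, cyclic loess 1544, 1831 and 51, array weights 8551, 312 and 2, the replicate block 1 and 38 and a threshold of 0.01 3 and 5. With only the lines compared it was 8481 in I1 and 0 in M1, with the mean of probe sets 338 in M1, and with a minimum signal of 8 1 between I1 and M1. With 1 array left out the counts ranged from 0 to 8481, 12879 and 10365. Calls toward higher signal made up 37.6% in I1 and 31.2% in M1 as deposited, 62.0% and 53.8% after quantile normalization and 49.5% and 46.3% after cyclic loess. Between I1 and M1, differences turned sign with the M1 array left out: Timp3 gave −0.79 without replicate 1 and 0.46 without replicate 2, Plat −0.45 and 0.68, and Adamts1 −0.998 and 0.65. The cause of these changes was not tested. Dim genes cannot be told from background, so no size under the array medians is exact.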
